A study of Mus musculus with 8 samples.

Results

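The mitochondrial ribosomal protein genes were followed across common lymphoid progenitors of 3 genotypes. Members were all genes whose annotated symbol starts with Mrps or Mrpl, which name proteins of the small and the large subunit. The annotation named 78 such genes, and 76 of them (29 Mrps and 47 Mrpl) had at least 1 probe set that names no other gene, out of 18193 genes with such a probe set. Each gene was read at its brightest single-gene probe set, so the probe sets were selected on their brightness, and no difference between genotypes entered the rule. All 76 passed the filter on dim probe sets, as did 11957 of the 18193 genes. Mrpl30 and Mrpl53 were named only on probe sets shared with another gene (Gm6238 and Ccdc142) and are not described further. Mrps36 keeps its name although its protein is now known as a part of the 2-oxoglutarate dehydrogenase complex, and it is counted here because the rule goes by symbol.

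The mitochondrial ribosome translates the few proteins encoded by mitochondrial DNA, which are core subunits of the respiratory chain and of ATP synthase. Its own proteins are all encoded in the nucleus, made on cytosolic ribosomes and imported. Some have counterparts in the bacterial ribosome from which it descends, while others are found only in mitochondria. Lymphoid progenitors that begin to divide need this machinery to build respiratory capacity.

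RNA came from bone marrow progenitors of C57bl/6 mice, 10 to 13 weeks old, which were sorted for FLT3 and CD127 and against lineage markers and LY6D. Wild-type cells (WT, 2 arrays) were compared with cells of HEB-KO mice, which lack HEB, the product of Tcf12 (2 arrays), and of E2A-KO mice, which lack E2A, the products of Tcf3 (4 arrays). Both factors belong to the E protein family, whose dimers bind E-box sequences in DNA and which is needed early in lymphoid development. Per the labels each sort pooled several marrows, every genotype had no fewer than 2 independent sorts, and the RNA was amplified over more than 1 round before labelling. The labels used here do not say how the alleles were deleted or in which cells. Because cells were pooled, the p-values below reflect variation between arrays and not between mice.

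The targeted genes were lower than in WT where the labels say so. Tcf3 read 3.71 to 4.28 (log2 intensity) on the E2A knockout arrays against 7.76 and 7.98 in WT. Tcf12 read 7.10 and 6.49 on the HEB knockout arrays against 8.85 and 8.76 in WT. Those Tcf12 readings still lay above the median of tested genes on their arrays (6.62 and 6.46). Flt3 read 10.12 to 11.05 on all 8 arrays. Il7r, which encodes CD127, read 10.51 and 10.91 in WT but 7.89 to 9.04 in E2A knockout cells. Ly6d, whose protein the sort excluded, read 7.83 on WT array 2, 7.52 on HEB knockout array 1, 6.75 and 6.88 on E2A knockout arrays 1 and 4, and 3.53 to 4.48 on the others. The mean of 11 neutrophil and monocyte markers ran from 5.47 to 7.51 on the E2A knockout arrays, was 5.93 and 6.69 in WT, and was 7.28 and 8.40 in HEB knockout cells. S100a8, a defining neutrophil gene, was among them and read 7.66 and 9.84 in HEB knockout cells against 3.35 and 6.87 in WT. The hybridization controls, bacterial transcripts added at a fixed amount, read 10.29 on WT array 2 and 10.32 on HEB knockout array 1, against 11.40 to 12.62 on the other 6.

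Promoters of the members were read from RefSeq (GRCm38.p6) as windows of 300 bases, 250 before and 50 after each annotated start. Windows were found for 67 of the 76 members, 73 windows in all because some genes have several starts, and 32851 windows covered all genes. No window was found for Mrpl13, Mrpl15, Mrpl19, Mrpl38, Mrpl4, Mrpl54, Mrps28, Mrps34 and Mrps35. The members' windows were rich in CpG, with a median GC content of 58.7% and 21 CpG pairs, against 52.7% and 7 over all windows. The motif CCGGAAG, bound by ETS factors including GABP, stood on either strand in 34.2% of member windows and 8.86% of all windows. The YY1 motif AAGATGG stood in 17.8% against 6.34%, and the core GCATGCG of the NRF1 site in 8 of the 73 member windows against 3.58% of all. Factors of these 3 kinds are known regulators of nuclear genes for mitochondrial proteins. Of the E-boxes that E proteins bind, CAGCTG stood in 16.4% against 16.3% and CAGGTG in 13.7% against 20.2%. The MYC E-box CACGTG stood in 9.59% against 7.15%. These shares are descriptions of letters and not of bound sites, and the windows were not matched for GC content.

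The stretches of 250 bases before 5 start sites are shown, in lower case with every match to the 6 motifs in capitals, each read 5′ to 3′ on the strand of its gene. Mrps11 and Mrpl46 lie head to head on chromosome 7, on opposite strands with annotated starts 42 bases apart, so that their windows overlap. They are shown because a subunit protein of each kind is read from this shared stretch and both were lower in E2A than in HEB knockout cells on every array. Mrps11 (chr7:78782881-78783130, plus strand) holds the YY1 letters as CCATCTT, and Mrpl46 (chr7:78783090-78783339, minus strand) holds the E-box CAGGTG as its complement CACCTG.
Mrps11: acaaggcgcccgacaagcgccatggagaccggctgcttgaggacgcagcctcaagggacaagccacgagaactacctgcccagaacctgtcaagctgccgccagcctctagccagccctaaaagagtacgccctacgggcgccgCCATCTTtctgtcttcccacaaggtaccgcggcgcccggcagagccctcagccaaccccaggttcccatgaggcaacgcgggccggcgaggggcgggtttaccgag
Mrpl46: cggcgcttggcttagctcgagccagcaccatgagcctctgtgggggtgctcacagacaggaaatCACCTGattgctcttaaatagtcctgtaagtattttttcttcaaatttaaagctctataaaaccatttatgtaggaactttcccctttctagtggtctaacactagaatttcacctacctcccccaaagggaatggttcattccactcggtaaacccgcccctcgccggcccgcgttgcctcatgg
Mrpl58 (chr11:115403502-115403751, plus strand) had the lowest difference of E2A knockout from WT and holds both E-boxes of the E proteins and, near the start, the ETS letters CCGGAAG. The windows of the next lowest members, Mrpl43, Mrpl24 and Mrpl49, hold neither of these E-boxes. Mrps26 (chr2:130563507-130563756, plus strand) was higher in E2A knockout cells on every array and holds the ETS letters as CTTCCGG just before the start.
Mrpl58: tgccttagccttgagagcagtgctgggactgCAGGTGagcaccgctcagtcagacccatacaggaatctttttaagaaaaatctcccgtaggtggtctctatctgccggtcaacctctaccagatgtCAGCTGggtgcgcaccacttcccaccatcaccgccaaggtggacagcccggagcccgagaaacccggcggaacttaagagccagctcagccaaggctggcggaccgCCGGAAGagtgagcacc
Mrps26: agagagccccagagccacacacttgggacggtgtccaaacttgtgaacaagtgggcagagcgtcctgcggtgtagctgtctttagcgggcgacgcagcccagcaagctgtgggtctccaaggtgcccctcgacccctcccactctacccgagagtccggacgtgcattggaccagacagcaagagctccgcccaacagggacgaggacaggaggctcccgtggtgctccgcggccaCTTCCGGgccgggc
Mrpl39 (chr16:84735245-84735494, minus strand), the brightest member, holds CGCATGCG, in which the NRF1 letters match on both strands with an overlap.
Mrpl39: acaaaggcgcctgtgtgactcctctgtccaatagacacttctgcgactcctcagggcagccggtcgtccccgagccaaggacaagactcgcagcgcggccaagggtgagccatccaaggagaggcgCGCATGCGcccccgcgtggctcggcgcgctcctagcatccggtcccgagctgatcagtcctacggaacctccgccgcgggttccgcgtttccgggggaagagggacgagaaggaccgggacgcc

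Shared promoters of this kind were common among the members. For 23 of the 67 members (34.3%) the window overlapped one on the opposite strand of another gene, against 11.9% of the 27025 genes with windows. Mrpl43 lies head to head with Twnk, the helicase that unwinds mitochondrial DNA, with starts 116 bases apart. Mrps12 lies opposite Sars2, the mitochondrial seryl-tRNA synthetase, at 147 bases, and Mrpl47 lies opposite Ndufb5, a subunit of respiratory complex I, at 308 bases. The log2 difference of E2A knockout from WT was 0.08 (SE 0.27) for Twnk and -0.56 (SE 0.35) for Mrpl43, the latter -0.28 without E2A knockout array 3. Sars2 differed by 0.32 (SE 0.21) in the same comparison. None of these differences passed the test, and the differences between neighbours were not themselves tested.

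The members were expressed at mid to high intensity in all 3 genotypes, and their median spread within a genotype was below that of all tested genes. Their mean log2 intensities ran from 5.40 to 10.48 with a median of 7.87, against a median of 6.32 over all tested genes. Intensities of different probe sets depend on the probes as well as on the transcript, so their order is a description of the array signal. The median residual SD within a genotype was 0.268 for the members and 0.329 for all tested genes, and 0.110 for the 43 cytosolic ribosomal protein genes that were tested. The members were not set beside genes of like intensity. The 5 brightest were Mrpl39, Mrpl52, Mrpl51, Mrpl57 and Mrpl44, all large-subunit proteins found only in mitochondria. The 3 dimmest were Mrps27, a pentatricopeptide repeat protein, Mrps11 and Mrpl1, both counterparts of bacterial proteins.

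Mrpl39 was also the steadiest member at the probe sets read, although its other single-gene probe set (mean 7.34) ran from 6.67 to 8.13. Its brightest probe set read 10.55 and 10.32 in WT and 10.37 and 10.32 in HEB knockout cells. In E2A knockout cells it read 10.61, 10.59, 10.47 and 10.60, and the span over 8 arrays was 0.29. With each array centred on the median of all its probe sets, Mrpl52 had the next smallest span (0.44, against 0.24 for Mrpl39). It read 10.27 and 9.80 in WT, 9.77 and 10.03 in HEB knockout, and 10.13, 10.26, 10.31 and 10.24 in E2A knockout cells. As deposited its span was 0.54, and Mrps21, Mrpl41, Mrpl57, Mrpl3 and Mrpl51 spanned 0.38 to 0.52. At the other end stood Mrpl58, a peptidyl-tRNA hydrolase that frees stalled chains and became part of the large subunit, with a span of 2.19, Mrpl42 with 1.83, Mrpl50 with 1.78 and Mrpl43 with 1.67. Mrpl42 read 7.49 and 7.80 in WT, 8.50 and 7.99 in HEB knockout, and 7.80, 7.79, 6.67 and 7.63 in E2A knockout cells, so a single E2A knockout array set its low end.

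The mean over the 76 members moved between arrays with the level of all tested genes. It was 7.76 and 7.94 in WT, 8.22 and 8.01 in HEB knockout, and 7.91, 7.83, 7.63 and 7.79 in E2A knockout cells. The median of all tested genes was 6.29 and 6.52 in WT, 6.62 and 6.46 in HEB knockout, and 6.37, 6.15, 6.09 and 6.21 in E2A knockout cells. HEB knockout array 1 was highest on both measures and E2A knockout array 3 lowest. Of the 76 members, 37 were highest on HEB knockout array 1 and 15 on HEB knockout array 2, while 27 were lowest on E2A knockout array 3 and 13 on WT array 1. With each array's tested-gene median subtracted, the members stood 1.47 and 1.43 above it in WT, 1.6 and 1.55 in HEB knockout, and 1.55, 1.68, 1.54 and 1.57 in E2A knockout cells. On that scale both WT arrays lay below all 6 knockout arrays. The median difference of E2A knockout from WT was then 0.15 for the members, beside 0.14 over all tested genes. For HEB knockout from WT it was 0.11 for the members, beside -0.05. The share of members highest on HEB knockout array 1 then dropped to 13 of 76, and E2A knockout array 2 held the most, with 24.

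**Figure D1:**
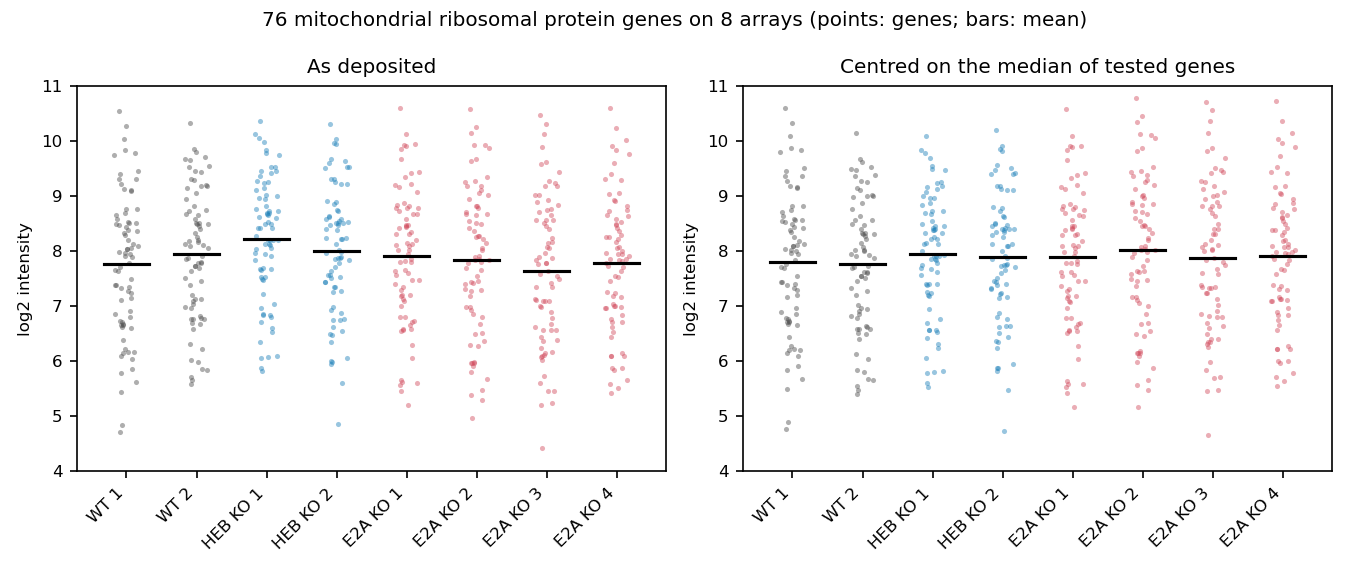
Log2 intensity of the 76 members on each array, as deposited (left) and with every array centred on its median of tested genes (right). Points are genes and bars are means over genes; as deposited the mean is highest on HEB knockout array 1 (8.22) and lowest on E2A knockout array 3 (7.63), and after centring the 8 means lie closer together.

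Signs of RNA quality moved with these levels only in part. The 3′ minus 5′ difference of the actin controls, which grows as RNA or amplified copies shorten, was 4.45 and 3.84 in WT, 3.37 and 3.58 in HEB knockout, and 4.41, 4.78, 4.12 and 3.86 in E2A knockout cells. It was thus lowest on the arrays where the members read highest as deposited. Within the E2A knockout group it did not follow their level. Array 3, with the lowest members' mean, read 4.12, below the 4.41 and 4.78 of arrays 1 and 2. The 3′ minus 5′ difference of Gapdh was 6.03 and 5.0 in WT, 4.67 and 5.14 in HEB knockout, and 5.38 to 5.97 in E2A knockout cells. Their part in the differences below was not tested. In sorted pools of this kind, a smaller share of cells with a transcript and less transcript per cell cannot be told apart.

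The comparison of E2A knockout cells with WT addresses the dependence of early lymphoid progenitors on E2A, and the members as a group lay close to the rest of the genes. The median log2 difference of the members was -0.04, beside -0.05 over all tested genes, and 32 of 76 were higher in E2A knockout cells (42.1%, against 45.1% of all genes). No member passed an adjusted p of 0.05 in limma (Benjamini-Hochberg over 11957 genes), where 53 genes or 0.443% did; the smallest adjusted p of a member was 0.334. At an unadjusted p under 0.05, 1 member was higher (background 3.57%) and 0 were lower (background 9.8%). No member differed by as much as 2-fold, and the range was -0.94 to 0.51. For 62 of the 76 members the 95% interval of the difference lay wholly within 2-fold either way, so larger changes of those genes lie outside their intervals.

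Mrpl11, the counterpart of the bacterial protein L11 at the base of the factor-binding stalk, had the highest difference. It read 9.22 and 9.32 in WT, 9.45 and 9.68 in HEB knockout, and 9.68, 9.64, 9.89 and 9.91 in E2A knockout cells. All 4 E2A knockout arrays lay above both WT arrays, by 0.51 on average (SE 0.20, 95% interval 0.05 to 0.96, limma adjusted p = 0.334). Its probe set is of a class that can also bind related transcripts. Of its 4 single-gene probe sets, another of this class gave 0.28 and a dim one (mean 3.52) gave 0.13. An ordinary one with a mean of 7.93 gave -0.08, with overlapping arrays. Mrps26, a small-subunit protein found only in mitochondria, read 8.53 and 8.66 in WT, 9.26 and 8.74 in HEB knockout, and 8.83, 9.06, 9.27 and 9.05 in E2A knockout cells. Both knockouts lay above WT on every array, with a difference of 0.46 (SE 0.23) for E2A. Mrpl12, the counterpart of the bacterial stalk protein L7/L12, read 8.03 and 8.48 in WT and 8.79, 8.83, 8.75 and 8.42 in E2A knockout cells, so that the groups overlapped. Mrpl48 read 8.20 and 8.17 in WT, 8.53 and 8.50 in HEB knockout, and 8.48, 8.78, 8.93 and 8.22 in E2A knockout cells. Its difference from WT was 0.41 (SE 0.24) but turned to -0.31 when its single-gene probe sets were averaged. The average took in a dim probe set (mean 3.99), which gave -1.26, and another (mean 7.75) that gave -0.09.

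Among the lower members, Mrpl58 stood first. It read 8.51 and 8.75 in WT, 8.61 and 8.24 in HEB knockout, and 8.21, 8.14, 6.56 and 7.85 in E2A knockout cells. All E2A knockout arrays lay below WT, by 0.94 on average (1.92-fold, SE 0.44), and without E2A knockout array 3 the difference was -0.56. Mrpl43 read 8.76 and 9.18 in WT and 8.67, 8.67, 7.56 and 8.74 in E2A knockout cells, again with array 3 far below the rest. Its difference was -0.56 (SE 0.35) with that array and -0.28 without it. Mrpl24, the counterpart of a bacterial protein that starts assembly of the large subunit, was more even: 9.75 and 9.68 in WT, 10.12 and 9.51 in HEB knockout, and 9.19, 9.26, 9.03 and 9.31 in E2A knockout cells. Its arrays did not overlap with WT, and the difference was -0.52 (SE 0.23, limma adjusted p = 0.375). Mrpl49 read 6.66 and 7.03 in WT and 6.57, 5.91, 6.36 and 6.53 in E2A knockout cells. The difference was -0.50 (SE 0.25) and turned to 0.18 when its probe sets were averaged.

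The arrays of the 2 genotypes were apart for few members. All E2A knockout arrays were above both WT arrays for 5 members (Mrpl11, Mrpl40, Mrpl48, Mrps26 and Mrps36), where 9.98% of all genes did so. They were below for 7 (Mrpl23, Mrpl24, Mrpl43, Mrpl49, Mrpl58, Mrps14 and Mrps33), where 15.4% of all genes did so. Both member shares, 6.58% and 9.21%, were under the background. With each array centred on the median of all its probe sets, the members' median was -0.09 beside -0.11 over all genes, and 3 members were above with arrays apart (background 7.57%). With each array centred on the median of tested genes the median turned to 0.15, beside 0.14 over all genes, and 14 members (18.4%, background 18.8%) were above with arrays apart. The sign of the members' shift thus followed the scaling. Their closeness to the rest of the genes could not change under these 3 scalings, because centring moves all genes of an array alike. Over the 22 alternative settings the members' median minus that of all genes ran from -0.10 to 0.15.

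**Figure D2:**
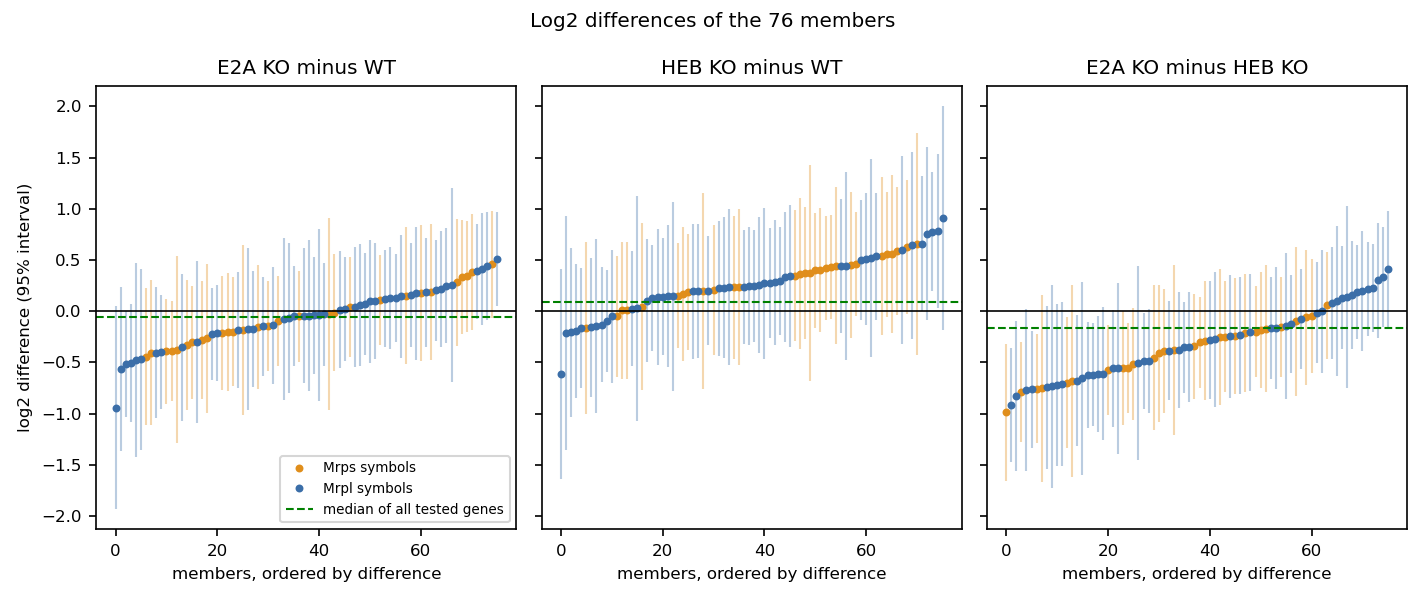
Log2 differences of the 76 members in each comparison, ordered by size, with 95% intervals from limma; orange marks Mrps and blue Mrpl symbols, and the dashed line is the median of all tested genes. In HEB knockout cells 64 of 76 members lie above 0, in E2A knockout against HEB knockout cells 13 of 76 do, and most intervals cover 0.

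HEB knockout cells were compared with WT on the same terms, and here most members read higher in the knockout by a small amount. The median log2 difference was 0.24, beside 0.09 over all tested genes, and 64 of 76 members (84.2%) were higher, against 61.8% of all genes. No member passed, and none of the 11957 genes did (0%) in limma at an adjusted p of 0.05, with 2 arrays a group. At an unadjusted p under 0.05, 3 members were higher (Mrpl4, Mrpl19 and Mrpl54; background 1.85%) and 0 were lower (background 0.761%). Both HEB knockout arrays lay above both WT arrays for 42 of 76 members (55.3%), where 23.4% of all genes did so. Both lay below for 2 members, Mrpl28 and Mrpl44 (background 11.4%). The differences ran from -0.61 to 0.91, and for 41 of the 76 members the 95% interval lay within 2-fold either way.

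A larger share of the small than of the large subunit was higher, a difference that was not tested. Of 29 members with Mrps symbols, 27 were higher in HEB knockout cells, 20 with arrays apart, and their median was 0.37. Of 47 with Mrpl symbols, 37 were higher, 22 with arrays apart, and their median was 0.23. All 16 small-subunit proteins with a bacterial counterpart were higher (median 0.22), as were 9 of the 10 found only in mitochondria (median 0.50, 9 with arrays apart). In the large subunit, counted by the protein's place and so with Mrps18a and Mrps30, 23 of 28 proteins with a bacterial counterpart (median 0.23) and 15 of 21 found only in mitochondria (median 0.20) were higher.

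Mrpl54, a large-subunit protein found only in mitochondria, had the smallest unadjusted p among members in HEB knockout against WT. It read 5.78 and 5.72 in WT, 6.70 and 6.35 in HEB knockout, and 5.66, 5.80, 6.08 and 6.10 in E2A knockout cells. HEB knockout arrays were above all the others, WT and E2A knockout arrays overlapped, and the difference from WT was 0.78 (1.71-fold, SE 0.26, 95% interval 0.19 to 1.36, limma adjusted p = 1). Mrpl19, the counterpart of a bacterial protein at the interface of the subunits, read 6.85 and 6.99 in WT, 7.97 and 7.44 in HEB knockout, and 7.40, 7.40, 6.61 and 6.96 in E2A knockout cells. Its difference from WT was 0.79 (SE 0.33), at a probe set of the class shared between transcripts, and over all its probe sets the difference ran from -0.09 to 1.74. Mrpl4 read 8.32 and 8.82 in WT, 9.15 and 9.31 in HEB knockout, and 8.88, 8.36, 8.51 and 8.92 in E2A knockout cells. HEB knockout cells were above WT by 0.66 (SE 0.29).

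Some members with high differences had 1 WT array well below the other. Mrpl50 had the largest difference, 0.91 (SE 0.48), but read 4.71 and 6.31 in WT, 6.34 and 6.49 in HEB knockout, and 5.56, 6.30, 5.60 and 5.58 in E2A knockout cells. Without WT array 1 its difference was 0.11. Mrpl34 read 6.23 and 7.14 in WT, 7.52 and 7.35 in HEB knockout, and 6.81, 6.49, 6.15 and 7.0 in E2A knockout cells, with a difference of 0.76 (SE 0.37) and of 0.30 without WT array 1. Mrps27 read 4.84 and 5.65 in WT, 5.81 and 5.99 in HEB knockout, and 5.62, 4.97, 4.41 and 5.88 in E2A knockout cells, so that WT array 1 and E2A knockout array 3 were its low points. Mrpl20, with a difference of 0.64, read 6.91 and 6.68 in WT and 8.12 and 6.76 in HEB knockout cells and so rested on HEB knockout array 1, while Mrpl16 (0.54) was even in both groups, at 7.99 and 8.19 in WT and 8.62 and 8.63 in HEB knockout cells.

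The few members that were lower in HEB knockout cells rested on HEB knockout array 2 or on small steps. Mrpl1, the counterpart of the bacterial protein that forms the L1 stalk, read 6.17 and 5.99 in WT, 6.08 and 4.85 in HEB knockout, and 5.19, 6.27, 5.45 and 5.51 in E2A knockout cells. Its difference from WT was -0.61 (SE 0.45), and 0.0044 without HEB knockout array 2. Mrpl22, which lines the exit tunnel in bacteria, read 9.09 and 9.43 in WT and 9.52 and 8.59 in HEB knockout cells, a difference of -0.21 (SE 0.36) that was 0.26 without the same array. Mrpl28 read 9.41 and 9.65 in WT, 9.36 and 9.30 in HEB knockout, and 9.86, 10.15, 9.58 and 9.41 in E2A knockout cells. It was lowest in HEB knockout cells on both arrays, though by only 0.20 against WT (SE 0.29). Its other single-gene probe sets gave -0.16 (mean 8.92) and 0.10 (mean 8.82) against WT. Mrpl58 differed by -0.21 (SE 0.50) with overlapping arrays.

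The size of the shift in HEB knockout cells depended on the arrays set against each other. HEB knockout array 1 against WT array 1 gave a members' median of 0.46 with 68 of 76 higher, and HEB knockout array 2 against WT array 2 gave 0.08 with 48 higher. The medians over all genes were 0.18 and -0.02 in these pairs, whose hybridization controls (HEB knockout minus WT) differed by -1.09 and 1.31. The arrays with like controls gave 0.25 each time: array 1 of HEB knockout against array 2 of WT had 68 members higher (all genes 0.06), and array 2 against array 1 had 53 higher (all genes 0.11). The latter pair leaves out the arrays with low hybridization controls, which were also those with high Ly6d in these genotypes. The neutrophil and monocyte markers were higher in HEB knockout cells as well, with a median difference of 0.59 and 8 of 11 higher, and their part in the members' shift was not tested.

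After centring each array on the median of all probe sets, the members' median in HEB knockout cells was 0.28 beside 0.13 over all genes, and 43 members (56.6%, background 27.4%) were above WT with arrays apart. After centring on the median of tested genes it was 0.11 beside -0.05, with 57 of 76 higher and 24 (31.6%, background 13.7%) above with arrays apart. Centring moves all genes of an array alike, so it could not change the gap between the members' median and that of all genes. Over the 22 alternative settings the members' median lay above that of all genes by 0.11 to 0.25. All settings draw on the same 8 arrays, so they are not independent of each other.

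**Figure D3:**
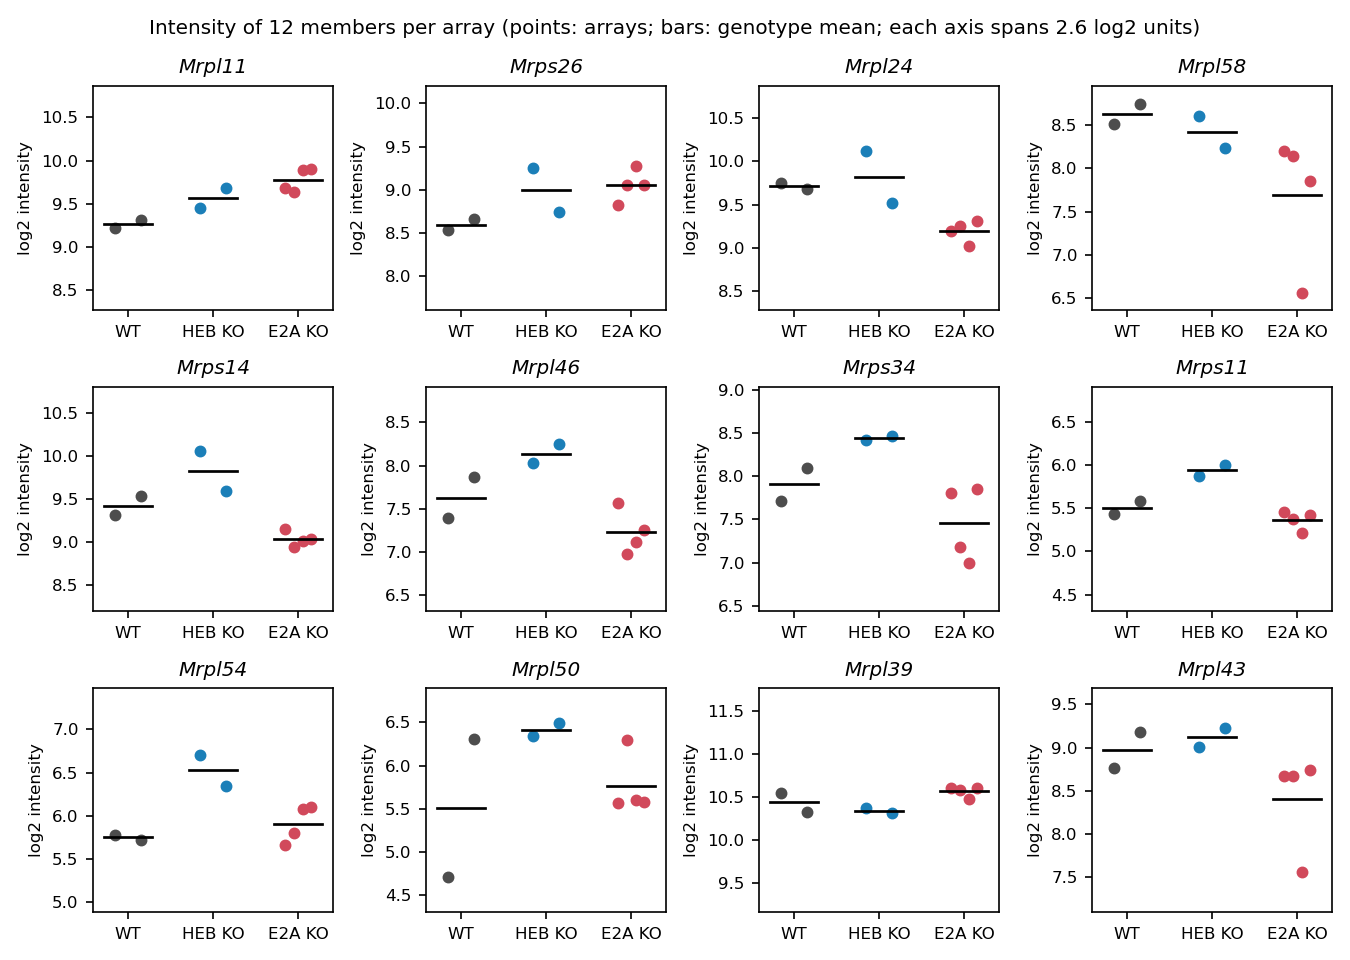
Log2 intensity of 12 members by genotype; points are arrays, bars are genotype means, and every axis spans the same number of log2 units. Mrpl11 and Mrps26 are above WT on all E2A knockout arrays, Mrps14, Mrpl46, Mrps34 and Mrps11 are lower on all E2A than on both HEB knockout arrays, and Mrpl58, Mrpl43 and Mrpl50 each have 1 array far from the others of its genotype.

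E2A and HEB knockout cells were compared directly to ask whether the loss of either factor gave different levels, and most members were lower in E2A knockout cells as deposited. The median log2 difference was -0.32, beside -0.16 over all tested genes, and 13 of 76 were higher (17.1%, against 37.1% of all genes). This comparison shares its arrays with the others above, so its values are not independent of them. No member passed in limma, where 14 genes or 0.117% did, and the smallest adjusted p of a member was 0.161. The neutrophil and monocyte markers had a median difference of -2.07 in the same direction, with 9 of 11 lower and 8 lower at an unadjusted p under 0.05. Their mean was 7.51 on E2A knockout array 3, where the members' mean was lowest, against 7.28 on HEB knockout array 1. It was 5.47 to 5.62 on the other E2A knockout arrays. The part of the markers in the members' shift was not tested. At an unadjusted p under 0.05, 14 members were lower (18.4%, background 13.8%) and 0 were higher (background 2.69%). All 4 E2A knockout arrays lay below both HEB knockout arrays for 29 members (38.2%, background 21.6%) and above for 3, Mrpl28, Mrpl39 and Mrpl52 (background 7.82%). The differences ran from -0.99 to 0.42, and 46 of 76 intervals lay within 2-fold.

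Mrps34, a small-subunit protein found only in mitochondria and mutated in a human Leigh syndrome, had the lowest difference. It read 8.43 and 8.47 in HEB knockout, 7.81, 7.18, 7.0 and 7.85 in E2A knockout, and 7.71 and 8.10 in WT cells. WT lay between the knockouts in mean, and E2A knockout cells were lower than HEB knockout cells by 0.99 (1.98-fold, SE 0.29, limma adjusted p = 0.19). Mrpl46, found only in mitochondria, read 8.03 and 8.25 in HEB knockout, 7.57, 6.98, 7.11 and 7.25 in E2A knockout, and 7.39 and 7.86 in WT cells, and the knockouts differed by -0.91 (SE 0.25, limma adjusted p = 0.161). Its head-to-head neighbour Mrps11 read 5.88 and 6.00, then 5.46, 5.38, 5.21 and 5.43, and 5.44 and 5.58 in the same order, a difference of -0.57 (SE 0.19, limma adjusted p = 0.219). Both genes of the shared promoter shown above thus had their highest values in HEB knockout cells.

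Mrps14, the counterpart of a bacterial protein in the head of the small subunit, read 10.06 and 9.59 in HEB knockout, 9.16, 8.94, 9.02 and 9.04 in E2A knockout, and 9.32 and 9.54 in WT cells. The 3 genotypes did not overlap, with WT between the knockouts, and the difference between the knockouts was -0.79 (SE 0.21, limma adjusted p = 0.163). At another Mrps14 probe set (mean 6.71) the knockouts differed by -0.42. There E2A knockout cells were above WT by 0.23 in mean, with overlapping arrays. Mrpl34 differed by -0.83 (SE 0.32) between the knockouts. Mrps16, a small-subunit protein mutated in a human disorder of oxidative phosphorylation, read 8.67 and 8.75 in HEB knockout, 8.14, 7.54, 8.07 and 8.06 in E2A knockout, and 8.04 and 8.26 in WT cells. On the other side, Mrpl28 was higher in E2A knockout cells by 0.42 (SE 0.25), Mrpl52 by 0.33 (SE 0.22), Mrpl55 by 0.30 (SE 0.25) and Mrpl39 by 0.23 (SE 0.19), each with an interval that covers 0. At their other single-gene probe sets, Mrpl28 differed by 0.37 (mean 8.92) and 0.10 (mean 8.82), and Mrpl39 by -0.58 (mean 7.34). Mrpl52 differed by -0.02 (mean 7.34), by -0.17 (mean 6.31) and, at a dim one (mean 3.07), by 0.35.

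The sign of the members' median between the knockouts did not survive all scalings. The members' median lay below that of all genes in each of the 22 alternatives, with a gap of -0.33 to -0.02. Centring cannot change this gap, and all settings draw on the same 8 arrays. Centred on the median of all probe sets, the members' median was -0.42 beside -0.26 over all genes, and 36 members (47.4%, background 27%) were lower with arrays apart. Centred on the median of tested genes it was 0.01 beside 0.17, with 38 of 76 higher and 7 members (9.21%, background 8.28%) lower with arrays apart. Those 7 were Mrpl34, Mrpl46, Mrpl49, Mrps11, Mrps14, Mrps16 and Mrps34. With the hybridization control level as a covariate, the median was -0.12.

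**Figure D4:**
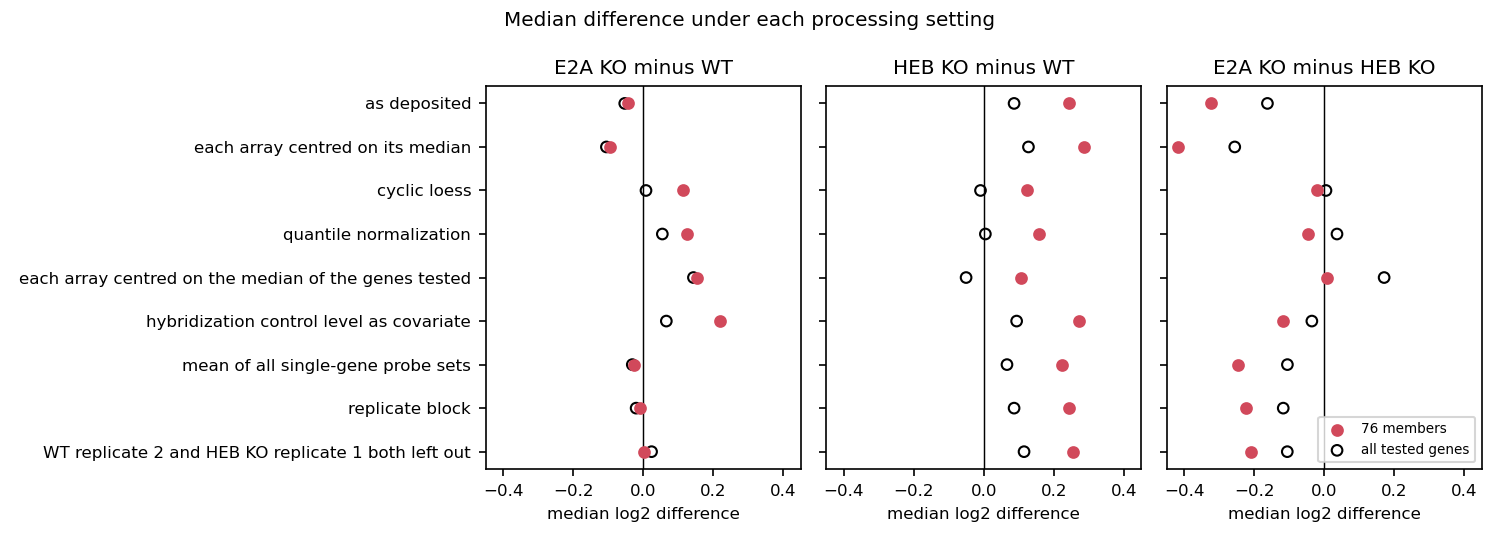
Median log2 difference of the 76 members (filled) and of all tested genes (open) in each comparison under 9 processing settings. In HEB knockout against WT the members lie above 0 and to the right of all genes in every setting drawn, while in E2A knockout against WT their sign turns between settings.

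Once each array was centred, the members varied together hardly more than all tested genes did. Over the 8 arrays, centred on the tested-gene median, the median Pearson correlation between pairs of members was 0.076 (2850 pairs), beside 0.048 between all tested genes and 0.468 between cytosolic ribosomal proteins. As deviations from the genotype means, the values were 0.041, 0.035 and 0.527. All these pairs share the same 8 arrays, so the values are descriptions. The cytosolic probe sets lay far up the range, with a median intensity of 12.6. They also moved little, with a median range of 0.429 as deposited, against 0.909 for the members. Subtracting the array medians gives such genes a shared profile. Their correlation can thus partly reflect the centring, and its part was not tested.

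Other genes of mitochondrial gene expression were read in lists, and no gene of them passed in any comparison. The members' class was joined by 4 tested mitoribosome proteins under other symbols, among them Dap3 and Ptcd3 of the small subunit. Dap3 read 9.14 and 9.46 in WT, 9.61 and 9.91 in HEB knockout, and 9.45, 9.06, 8.78 and 9.22 in E2A knockout cells. The 4 had a median difference from WT of -0.36 in E2A knockout cells, with 0 higher and 2 below WT with arrays apart (Ptcd3 and Chchd1), and of 0.23 in HEB knockout cells, with 3 higher. Ptcd3 read 7.88 and 7.90 in WT, 8.23 and 8.28 in HEB knockout, and 7.45, 7.66, 7.43 and 7.32 in E2A knockout cells. Its 3 genotypes did not overlap, with HEB knockout cells highest, and E2A differed from HEB knockout cells by -0.79 (SE 0.20, limma adjusted p = 0.143). Chchd1, another small-subunit protein, read 9.28 and 9.10 in WT, 9.06 and 9.08 in HEB knockout, and 8.87, 9.06, 8.95 and 8.73 in E2A knockout cells, so that both knockouts lay below WT by small steps. Gadd45gip1, of the large subunit, read 7.59 and 7.11 in WT, 7.88 and 7.03 in HEB knockout, and 7.29, 6.80, 7.15 and 5.74 in E2A knockout cells, with array 4 far below the rest.

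Assembly factors of the mitoribosome (25 tested) had a median difference from WT of -0.15 in E2A knockout cells (9 higher) and of 0.15 in HEB knockout cells (19 higher). Ddx28, a helicase that helps to assemble the large subunit, read 4.98 and 6.20 in WT, 6.73 and 6.69 in HEB knockout, and 6.01, 5.64, 5.67 and 5.94 in E2A knockout cells. It differed by 1.12 (SE 0.37) in HEB knockout cells, with a low WT array 1. Mrm1, which methylates the large ribosomal RNA, read 5.67 and 5.85 in WT and 6.33 and 6.56 in HEB knockout cells. Translation factors (15 tested) had medians of -0.08 and 0.27, mitochondrial aminoacyl-tRNA synthetases (18) of -0.06 and 0.08, and import and folding proteins (22) of -0.11 and 0.19. In the last list Timm17a, a channel subunit of the inner membrane, differed by 0.86 (SE 0.33) in HEB knockout cells.

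Genes of mitochondrial DNA transcription and replication (10 tested) had medians of 0.04 for E2A knockout and 0.17 for HEB knockout cells. Tfam, which packages and transcribes mitochondrial DNA, stood apart from its list. It read 8.15 and 8.09 in WT, 8.34 and 7.80 in HEB knockout, and 7.59, 7.11, 7.10 and 6.93 in E2A knockout cells. The E2A knockout arrays lay below all the others, by 0.93 against WT (SE 0.26, limma adjusted p = 0.173). Among 12 regulators of mitochondrial biogenesis, Gabpb1, a subunit of the ETS factor GABP, differed by -0.94 (SE 0.31, limma adjusted p = 0.251), and Ppargc1b, a coactivator of such genes, by 1.20 (SE 0.41, limma adjusted p = 0.269) in E2A knockout cells. The list's medians were -0.06 and 0.06. Nars2, the mitochondrial asparaginyl-tRNA synthetase, differed by -0.85 (SE 0.25) and Hemk1, which modifies mitochondrial release factors, by -1.19 (SE 0.33) in E2A knockout cells.

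Lists outside mitochondria give the scale. Cytosolic ribosomal proteins had medians of -0.13 and 0.06 for E2A and HEB knockout against WT, with 33 of 43 higher in HEB knockout cells. Cell cycle genes (21 tested) had medians of 0.18 and 0.25, with 18 higher in HEB knockout cells, and their mean was 8.65 and 8.77 in WT, 9.09 and 8.87 in HEB knockout, and 9.22, 9.37, 8.77 and 8.60 in E2A knockout cells. Whether the cell cycle genes had a part in the members' shift was not tested.

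**Figure D5:**
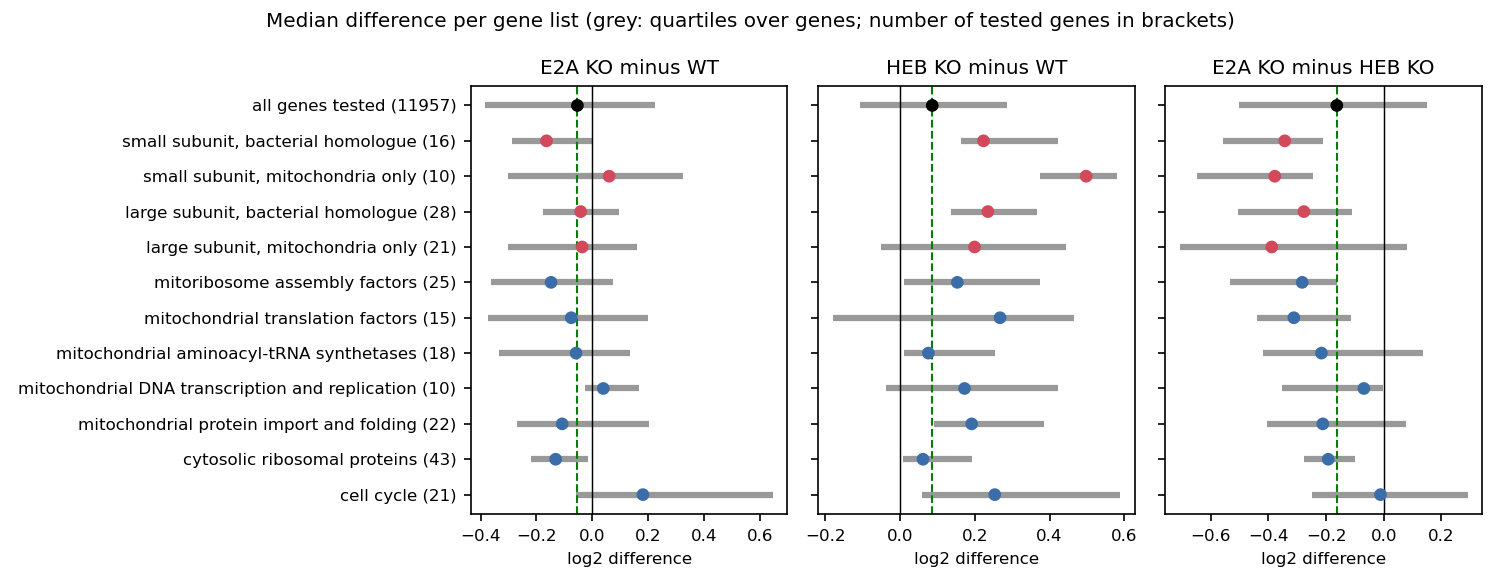
Median log2 difference per gene list, with the quartiles over genes as grey bars and the median of all tested genes as a dashed line; red points are classes of mitoribosome proteins. In HEB knockout cells the 4 classes have medians of 0.20 to 0.50, beside 0.09 over all genes, and in E2A knockout cells they lie on either side of 0.

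Probe sets of the same gene did not always agree. Of the 76 members 42 had more than 1 single-gene probe set, 156 in all, and for 9 of them the probe sets differed in sign and by over 1 log2 unit in a comparison with WT. These were Mrpl15, Mrpl19, Mrpl21, Mrpl34, Mrpl35, Mrpl48, Mrpl49, Mrpl58 and Mrps9. Some of the disagreements involve dim probe sets: the second of Mrpl58 had a mean of 2.96 and exceeded the array median on 0 arrays. The probe set read was of a class that can bind several transcripts for 12 members. Of these, 7 were of the class shared between transcripts of a family (Mrpl9, Mrpl19, Mrpl37, Mrpl38, Mrps6, Mrps12 and Mrps24) and 5 of the class open to cross-hybridization (Mrpl11, Mrpl15, Mrpl28, Mrpl44 and Mrpl48).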

How the data were processed

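The 8 arrays each held 45101 probe sets. The authors deposited RMA intensity values on a linear scale, per the submitters' processing notes (no version stated). Values were analysed as log2 without further normalization. Probe sets were named from the platform annotation (34945 with 1 gene, 932 with several, 9160 with none), and members and lists were chosen with earlier results of these data known. A gene was tested if its brightest single-gene probe set exceeded the median of its array on 2 or more arrays. A limma model (3.58.1, R 4.3.3) of genotype means, with 5 residual degrees of freedom, gave 3 two-sided contrasts, adjusted by Benjamini-Hochberg at 0.05. "Arrays apart" means no overlap between genotypes. Named members were the 4 highest and 4 lowest per comparison, the brightest, dimmest, steadiest and most variable, and those with disagreeing probe sets; in other lists, called genes or the 2 smallest p. Mrps16, Mrps21, Mrpl3, Mrpl4, Mrpl16, Mrpl20, Mrpl41, Dap3, Chchd1, Gadd45gip1, Twnk, Sars2, Flt3, Ly6d and S100a8 were named after their values were seen. Alternatives covered filters, scaling, probe sets, model, block and arrays left out. The scripts were tested on simulated data. The number of arrays limits the precision.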

Additional observations from a re-analysis of the deposited data

Results flagged for a closer look

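In the E2A knockout group, the only group with enough arrays, 9 of 79 values checked had 1 array far from the other 3; chance gives this for about 1 in 20. On array 2, Mrpl10 read 5.47 (others 6.07 to 6.16), Mrps15 read 8.42 (8.70 to 8.73), Mrps16 read 7.54 (8.06 to 8.14) and Mrpl50 read 6.30 (5.56 to 5.60). On array 3, Mrpl39 read 10.47 (10.59 to 10.61), Mrpl42 read 6.67 (7.63 to 7.80), Mrpl43 read 7.56 (8.67 to 8.74) and Mrpl44 read 9.23 (9.93 to 10.02), while Mrpl14 read 6.39 (5.61 to 5.68).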

How the results depend on the processing

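In each comparison 0 members passed in any of the 22 alternatives, and the lowest adjusted p of a member in limma was 0.233 (E2A knockout against WT), 0.762 (HEB knockout against WT) and 0.110 (E2A against HEB knockout). Over all genes, 0 to 120, 0 to 0 and 0 to 91 passed, where 53, 0 and 14 did with the values as deposited. The members' median ranged from -0.15 to 0.22, from 0.11 to 0.37 and from -0.47 to 0.01. For E2A knockout against WT it became 0.11 with cyclic loess, 0.13 with quantile normalization, 0.15 with centring on tested genes and 0.22 with the hybridization control as covariate. For E2A against HEB knockout the same settings gave -0.0225, -0.0465, 0.0086 and -0.12, and leaving out each array gave -0.47 (without HEB knockout array 2) to -0.21 (without HEB knockout array 1). Without WT array 2 the median of E2A knockout against WT was 0.0019. Averaging probe sets reversed Mrpl49 (0.18) and Mrpl48 (-0.31) in E2A knockout against WT, Mrpl58 (0.0073) in HEB knockout against WT and Mrpl39 (-0.18) in E2A against HEB knockout. Leaving out each array gave -1.23 to 0.0044 for Mrpl1 and -0.67 to 0.26 for Mrpl22 in HEB knockout against WT, both reversed without HEB knockout array 2. The cause was not tested. With the replicate number as a block the medians were -0.01, 0.24 and -0.22, and 12, 0 and 3 genes passed. Same-numbered arrays correlated at -0.28 to 0.15 in their deviations. In a group of 2 arrays the deviations are mirror images, so these values cannot tell whether the numbers mark shared handling. With WT and HEB knockout numbers crossed (chosen after seeing the data) 8, 0 and 0 passed. Centring on tested genes, the covariate and leaving out WT array 2 with HEB knockout array 1 were also chosen after seeing the data.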
